A study of Mus musculus with 12 samples.

Results

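The 10 apolipoprotein genes Apoa1, Apoa2, Apoa4, Apoa5, Apob, Apoc1, Apoc3, Apoe, Apoh, and Apom were followed across mouse livers with and without the antiapoptotic gene Mcl1 and the innate immune adaptor Sting1. They were taken by symbol, mapped to the Ensembl identifiers of the count files, and are 10 of 40551 genes counted. All 10 passed the filter on low counts, which left 15070 genes to test. Total RNA-seq counts were given for 12 livers, 3 of each genotype. WT livers carried neither deletion. Mcl1 KO livers came from mice with floxed Mcl1 and a Cre recombinase driven by the albumin promoter, so that the deletion is aimed at hepatocytes and the other liver cells keep the gene. Sting1 KO livers lacked Sting1 in the whole animal. Mcl1 Sting1 DKO livers came from a cross of both lines. The WT and Mcl1 KO livers used for transcriptome analysis were from mice of 2 months of age, and animals of both sexes were used in the study. The labels give tissue and genotype but neither age nor sex, and whether WT mice carried the floxed allele without Cre is not given in the sources used here.

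Apolipoproteins are the protein shell of the particles that carry lipids through blood, and the liver secretes most of them. Apob is the scaffold of very low density lipoprotein and stays with its particle from assembly to clearance. Apoa1 and Apoa2 are the main proteins of high density lipoprotein (HDL), which collects cholesterol from tissues. Apoc1, Apoc3, Apoa4, Apoa5, and Apoe exchange between particles and steer lipolysis and uptake. Apom carries sphingosine 1-phosphate on HDL, and Apoh, also called beta-2-glycoprotein I, binds phospholipids and belongs to a different protein family from the others. Hepatocytes are the main source of these proteins in liver, whereas Apoe and Apoc1 are also made by macrophages.

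Counts on genes came to between 28826367 and 45266387 per library. Mcl1 was at 90.2 to 103.8 CPM (counts scaled to a library of 1000000 counts) in WT, 77.0 to 90.1 in Sting1 KO, 25.0 to 34.0 in Mcl1 KO, and 18.1 to 26.0 in Mcl1 Sting1 DKO livers. Sting1 was at 3.67 to 5.997 CPM in Mcl1 KO and 1.90 to 2.53 CPM in Mcl1 Sting1 DKO livers, but its counts did not separate the libraries labelled Sting1 KO (1.16 to 2.70 CPM) from WT (2.11 to 2.53 CPM), and a count over the whole gene need not fall with a deletion of part of it. Hepatocyte markers, 9 of the 10 listed, summed to between 94863 and 158787 CPM in every library. Y-linked genes were expressed only in WT replicates 2 and 3 and in Mcl1 Sting1 DKO replicate 1. Sex was thus not balanced between the groups of the comparisons below, Mcl1 KO against WT among them. Markers of skeletal muscle and pancreas were present only in Mcl1 KO replicate 3, at 1155 and 4636 CPM against at most 6.29 and 30.9 CPM elsewhere. In Mcl1 KO replicates 2 and 3, small structured RNA took 2.78 and 1.55% of counts (0.192 to 0.982% in the other 10 libraries), and mitochondrial genes took 0.580 and 0.565% (1.05 to 1.63% in the others). These libraries also had a trend with transcript length, described with Apob below. Values without both are given beside the results that rest on them.

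As a group, the 10 genes held 4.55 to 5.27% of the counts in WT, 4.99 to 5.10% in Sting1 KO, 4.63 to 4.97% in Mcl1 KO, and 4.62 to 5.01% in Mcl1 Sting1 DKO libraries. The ranges of the 4 genotypes overlapped except that all Sting1 KO values were above 4.97%, the highest Mcl1 KO value. Alb, which encodes albumin, alone took 5.62 to 11.5% of the counts. Per transcript length the share differed more. With canonical lengths the 10 genes made up 5.25 to 5.83% of TPM in the 6 livers with Mcl1 deletion and 5.93 to 6.93% in the 6 without it, which did not overlap. On this scale Apoa2 alone had 10961 to 19276 TPM with Mcl1 deletion and 20829 to 26270 TPM without it. Part of the difference in the share is thus that of Apoa2. The share without Apoa2 is not given, so a difference in the share of the other genes is not shown. With summed exon lengths the shares were 4.76 to 5.45% and 5.07 to 5.98%, which overlapped.

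Levels between genes are comparable only per transcript length, for which TPM, transcripts scaled to a sum of 1000000 per library, were computed from the summed exon length of each gene. In WT livers Apoe was highest at 16685 ± 1477 TPM (mean ± SD, n = 3), followed by Apoa1 at 16654 ± 2726 TPM. These 2 genes ranked 4 and 5 among all genes. Apoc1 had 5591 ± 422 TPM, Apoa2 had 4892 ± 581 TPM, and Apoh had 4040.3 ± 515 TPM. Lower down were Apob at 2438 ± 200.3 TPM, Apoa5 at 1771 ± 195 TPM, Apoc3 at 1457 ± 215 TPM, and Apom at 1242 ± 152 TPM. Apoa4 was last at 400.4 ± 174 TPM and ranked 333 among all genes. Between neighbours in this order, the WT values overlapped for Apoe and Apoa1, Apoc1 and Apoa2, Apoa2 and Apoh, Apoa5 and Apoc3, and Apoc3 and Apom. They did not overlap between Apoa1 and Apoc1, Apoh and Apob, Apob and Apoa5, or Apom and Apoa4. The place of Apoa2 depended most on the length used. Its annotated exons sum to 4350 bases, while its canonical transcript has 518 bases. With canonical lengths Apoa2 reached 23474 ± 2599 TPM in WT and came first of the 10, ahead of Apoe at 17704 ± 1552 TPM. Apoa1 was then in place 3, and Apoc3 at 1080.5 ± 151 TPM stood above Apoa5 at 1035 ± 104 TPM.

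In Mcl1 KO livers Apoa4 had 2549 ± 1982 TPM, in place 6 of the 10. That place rests on replicate 2, with 1846, 4787, and 1014 TPM in replicates 1 to 3, and without it the mean was 1429.8 TPM, in place 9. It had 1179 ± 724 TPM in Mcl1 Sting1 DKO livers, again the lowest of the 10. Apoa2 went from 4892 ± 581 TPM in WT to 2669 ± 539 TPM in Mcl1 KO livers, where the mean of Apoh, 2920.2 ± 446 TPM, stood above it. That order did not hold in Mcl1 KO replicate 3, with Apoa2 at 2942 and Apoh at 2931 TPM. Nor did it hold with canonical lengths, where Apoa2 had a mean of 13551 TPM and Apoh of 2887.5 TPM in Mcl1 KO. With summed exon lengths, Apob went from 2438 ± 200.3 TPM in WT to 1412 ± 1059 TPM in Mcl1 KO livers. Apoe and Apoa1 remained first and second in all 4 genotypes on this scale.

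**Figure D1:**
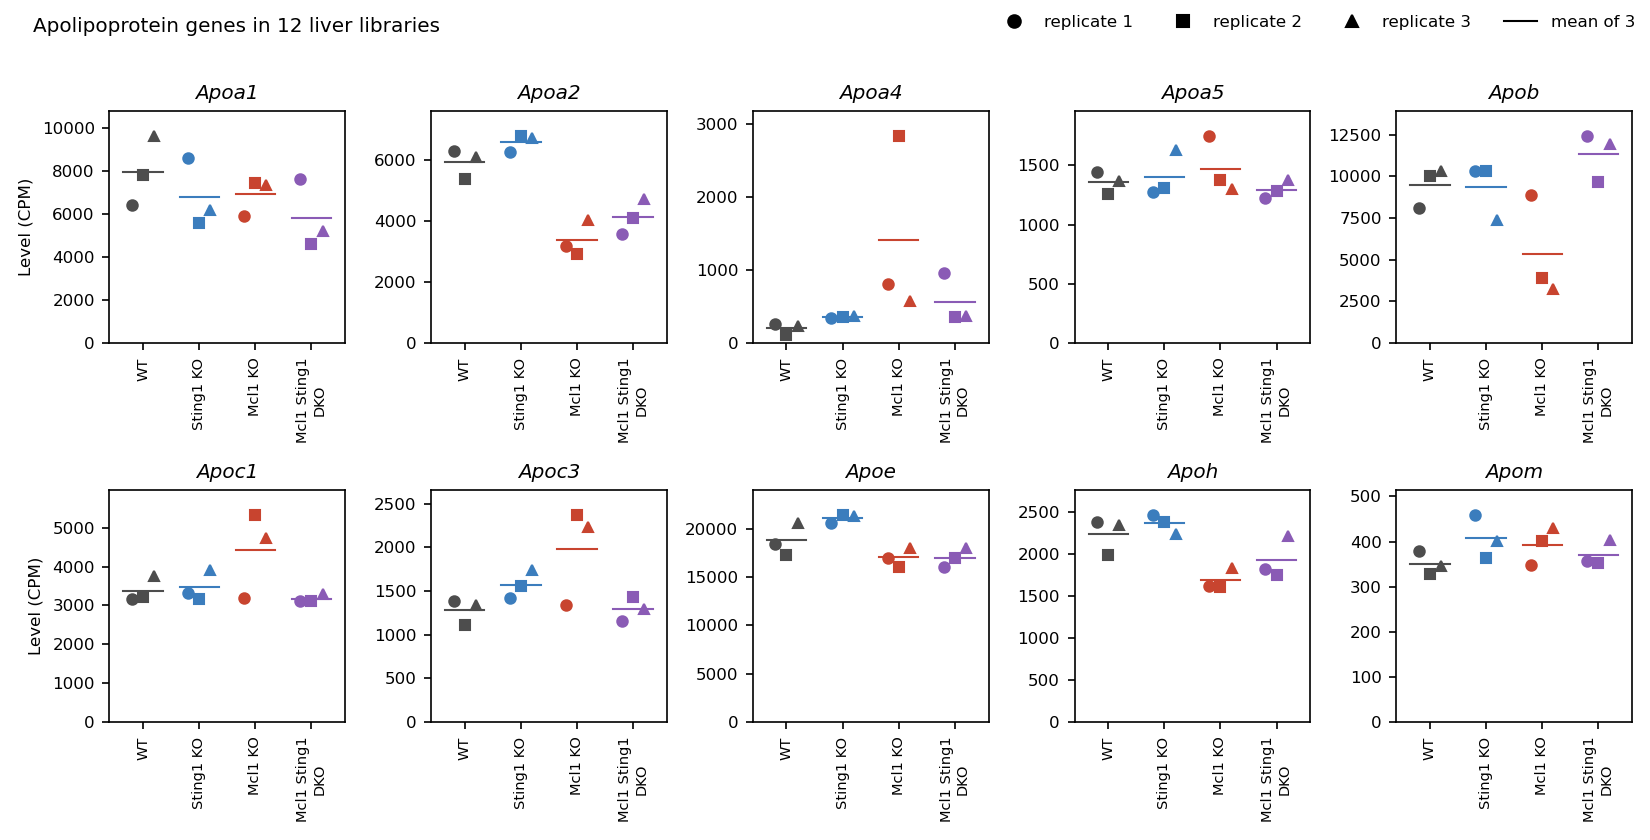
Level of each apolipoprotein gene in CPM (scaled with the TMM factors of edgeR, linear axes from 0) in the 12 livers, by genotype. Symbols are replicates 1 to 3 and bars are means of 3. Apoa2 is lower in all 6 livers with Mcl1 deletion. The mean of Apoa4 is highest in Mcl1 KO, though Mcl1 Sting1 DKO replicate 1 lies above Mcl1 KO replicates 1 and 3. Mcl1 KO replicates 2 and 3 have the lowest Apob and the highest Apoc1 and Apoc3 of the 12 livers.

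The first comparison asked what hepatocyte loss of Mcl1 does with Sting1 intact. Between Mcl1 KO and WT livers, the edgeR quasi-likelihood test called 2 of the 10 at an adjusted p under 0.05, Apoa4 as higher and Apoa2 as lower. Over all 15070 genes, 20.2% were called, so a count of 2 of 10 is close to the background. The median log2 fold change was -0.01 over the 10 genes and -0.00 over all genes, with 5 values above 0 and 5 below. In the second comparison, Mcl1 Sting1 DKO against Sting1 KO, 0 of the 10 genes passed, with 0.803% of all genes called. At an unadjusted p under 0.05 there were 2 of the 10, Apoa2 and Apoe, and 1709 of all 15070 genes. DESeq2 called 1 of the 10, Apoa2, and 461 of 15791 genes. Averaged over both backgrounds in the same fit, which sets 6 livers against 6, the test called 3 of the 10, with 16.7% of all genes called: Apoa4 was higher, and Apoa2 and Apoh were lower. The average uses the same libraries as the 2 comparisons and is not independent of them. Where groups are said below not to overlap, the share of all genes that separate this way is not given.

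**Figure D2:**
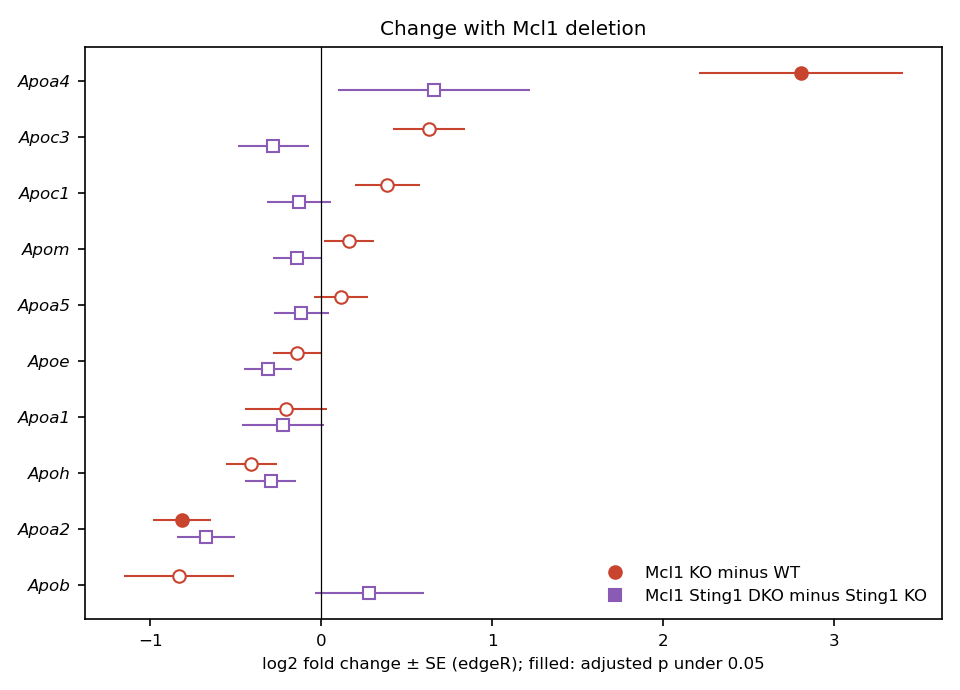
Change of each apolipoprotein gene with Mcl1 deletion, as log2 fold change with its standard error from edgeR, in Mcl1 KO against WT (circles) and in Mcl1 Sting1 DKO against Sting1 KO (squares). Filled symbols have an adjusted p under 0.05. Apoa4 at 2.81 and Apoa2 at -0.81 are the filled values, and the squares lie on the same side of 0 as the circles for Apoa4, Apoa2, Apoh, Apoe, and Apoa1 and on the other side for Apob, Apoc1, Apoc3, Apoa5, and Apom.

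Apoa2 (ENSMUSG00000005681, chr1:171049125-171053948, plus strand), which encodes the second most abundant HDL protein, was called in most fits of Mcl1 KO against WT (21 of 24 alternatives). In Mcl1 Sting1 DKO against Sting1 KO, Apoa2 was called in 1 of 24 alternatives. It was at 6289, 5368, and 6078 CPM in the WT livers and at 3171, 2903, and 4015 CPM in the Mcl1 KO livers. Sting1 KO livers had 6242, 6771, and 6718 CPM, and Mcl1 Sting1 DKO livers had 3560, 4090.4, and 4713 CPM. All 6 livers with Mcl1 deletion were thus below all 6 without it. The log2 fold change was -0.81 (SE 0.17, edgeR adjusted p = 0.00868) in Mcl1 KO against WT. In Mcl1 Sting1 DKO against Sting1 KO it was -0.67 (SE 0.17), with no overlap between the groups but an edgeR adjusted p of 0.0983. Averaged over both backgrounds it was -0.74 (SE 0.12, edgeR adjusted p = 0.00199), and this call held under all 23 alternatives, with log2 fold changes from -0.84 to -0.59. The difference between the 2 effects was 0.14 (SE 0.24, adjusted p = 0.810). Without Mcl1 KO replicates 2 and 3, the log2 fold change against WT was -0.90 (adjusted p = 0.0425). The call in Mcl1 KO against WT was lost with small structured RNA as a covariate (-0.75, adjusted p = 0.108), in a fit of both groups alone (adjusted p = 0.0637), and among libraries without Y-linked expression (-0.91, adjusted p = 0.129). The last fit holds 1 WT library and called 4 of 16222 genes in all, so its lost calls say little. In bulk liver RNA, fewer cells that express a gene and less RNA per cell cannot be told apart. The gene overlaps Tomm40l on the opposite strand, which had at most 795 counts in a library, and whether strand was used in counting is not given in the sources used here.

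Apoh (ENSMUSG00000000049, chr11:108233964-108305232, plus strand) followed Apoa2 at a smaller size. WT livers had 2381, 1995, and 2341 CPM, and Mcl1 KO livers had 1620.0, 1605, and 1835 CPM, with no overlap. Sting1 KO livers had 2466, 2386, and 2244 CPM, and Mcl1 Sting1 DKO livers had 1817, 1752, and 2212 CPM, again below the Sting1 KO livers. Neither comparison passed on its own, with log2 fold changes of -0.41 (SE 0.15, edgeR adjusted p = 0.0694) and -0.30 (SE 0.15, edgeR adjusted p = 0.499). The averaged value of -0.35 (SE 0.10, edgeR adjusted p = 0.0386) passed, but it passed in only 10 of 23 alternatives. Leaving out any of 8 libraries, or both Mcl1 KO replicates 2 and 3 (-0.38, adjusted p = 0.0731), ended that call. Over the 12 libraries, the log2 CPM of Apoa2 and Apoh had a Pearson r of 0.94, the highest of the 45 pairs among the 10 genes, and 0.75 after subtracting the genotype means. Part of this r is the genotype difference that both genes share.

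The sequence around the start of all 10 genes was searched for a set of motifs in the GRCm39 genome. Apoa2 and Apoh are shown here because they moved together. In windows from 250 bases before to 50 bases after the GENCODE canonical start, both hold TGTTTAC, the core bound by FOXA factors, on the plus strand. The match lies at bases -77 to -71 of Apoa2 and at bases -46 to -40 of Apoh, counted from the start. Of 21594 protein-coding windows, 680 (3.15%) hold it on either strand, and so do 2 of the 10. TGTTTAC was picked from the motifs searched, the others being given with Apoa4 below, because both genes hold it. It is a letter match, and binding was not tested. The 30 bases around each match, with the match in capitals, are chr1:171052535-171052564 for Apoa2 and chr11:108286041-108286070 for Apoh, both on the plus strand:
Apoa2: tgtctaaccctTGTTTACtccagcctgatc
Apoh: gctttagcttcTGTTTACagaaatgaaagt

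Apoa4 (ENSMUSG00000032080, chr9:46151994-46154757, plus strand) changed most. It encodes a lipid-binding protein that is made mainly by the intestine in the fed state and by mouse liver in steatosis and fasting. WT livers had 265, 109, and 227 CPM, and Mcl1 KO livers had 809, 2831, and 577 CPM, with no overlap between the groups. Sting1 KO livers had 343, 351, and 370 CPM. In Mcl1 Sting1 DKO livers it was at 957, 362, and 365 CPM, so that replicate 1 was above all Sting1 KO livers and the other 2 were within their range. The log2 fold change in Mcl1 KO against WT was 2.81 (SE 0.60, edgeR adjusted p = 0.00963), a 7.01-fold difference. The coefficient of variation was 88.2% in Mcl1 KO and 40.6% in WT livers, against 3.83% in Sting1 KO livers. Without Mcl1 KO replicate 2 the log2 fold change was 1.79, which still passed, and without replicates 2 and 3 it was 2.02 (adjusted p = 0.0592), where 1 library stands for Mcl1 KO. With small structured RNA as a covariate it was 1.63 (adjusted p = 0.147), and among libraries without Y-linked expression, with 1 WT library, 2.39 (adjusted p = 0.220).

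In Mcl1 Sting1 DKO against Sting1 KO, Apoa4 differed by 0.66 on the log2 scale (SE 0.56, adjusted p = 0.760), and by 0.03 without Mcl1 Sting1 DKO replicate 1. The lower base in WT was part of the contrast between the 2 comparisons, since Sting1 KO livers were above all WT livers (log2 fold change 0.82, SE 0.56, edgeR adjusted p = 0.998). Y-linked expression was present in WT replicates 2 and 3, which had the lower WT values, and in no Sting1 KO liver. Sex is thus not balanced in that comparison, nor in Mcl1 KO against WT, since no Mcl1 KO liver had Y-linked expression either. In Mcl1 Sting1 DKO livers, replicate 1, with Y-linked expression, had the highest value. The interaction was -2.15 (SE 0.80, adjusted p = 0.300, unadjusted p = 0.0199), so the effects of Mcl1 deletion were not shown to differ between the backgrounds. Averaged over both, Apoa4 rose by 1.74 (SE 0.41, edgeR adjusted p = 0.0143). That call was lost with small structured RNA as a covariate (1.21, adjusted p = 0.0586) and among libraries without Y-linked expression (1.21, adjusted p = 0.233). The enterocyte markers Fabp2, Vil1, Cdx2, Sis, and Lct summed to 43.7 to 79.5 CPM in Mcl1 KO livers and 44.8 to 56.9 CPM in WT livers, with 2 or 3 of the 5 genes at 0 counts in each library. Mcl1 KO replicate 2, with the highest Apoa4, also had the highest enterocyte marker sum of the 12 libraries (79.5 CPM, next 57.9 CPM). Mcl1 KO replicate 3, with the muscle and pancreas markers, had the lowest Apoa4 of its group. The part of these markers in the Apoa4 result was not tested.

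The bases before the Apoa4 start are shown because this gene changed most. Within the window searched it holds GTTAAT, a half-site of HNF1 factors, on the minus strand, written here as its complement in capitals. It was the only one of the 10 to hold it, against 6.92% of all windows. The 200 bases before the start, chr9:46151794-46151993 on the plus strand, read:
Apoa4: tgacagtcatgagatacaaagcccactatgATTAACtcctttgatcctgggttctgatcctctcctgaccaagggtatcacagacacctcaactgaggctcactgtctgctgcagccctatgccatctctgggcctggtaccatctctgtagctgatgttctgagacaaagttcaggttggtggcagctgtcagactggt
Across the 10 windows and both strands, TATAAA was in 4 (Apoa2, Apoa5, Apob, and Apoc3) against 13.2% of all windows. CCAAT was in 2 (Apoa2 and Apoc3, where it overlaps TATAAA by a base) against 40.0%. The nuclear receptor half-site AGGTCA was in Apoc3 and Apoh against 15.1%. CACGTG was in Apoa5 alone against 7.86%. TGACGT and CAAAGTCCA were in 0 of the 10, against 8.57% and 0.454% of all windows. These are letter matches only. For Apoe and Apom, the bases before the canonical start shared none of the 100-base stretches compared with the promoters that RefSeq lists for the gene. Apoc1 and Apoc3 had no RefSeq promoter to compare, so the starts of these genes are less certain.

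Apoa4 shares its locus with Apoa1, Apoc3, and Apoa5, which lie within 43.3 kb on chr9:46139878-46183217. None of the other 3 passed the test in Mcl1 KO against WT. Apoa1, whose start lies 12.1 kb before that of Apoa4, had a log2 fold change of -0.20 (SE 0.24) in Mcl1 KO against WT. Apoc3, on the minus strand between them, had 0.63 (SE 0.21, adjusted p = 0.0515). Apoa5, which starts 40.1 kb after Apoa1, had 0.12 (SE 0.16). The count of Apoa4 per Apoa1 count, a ratio within each library that is free of library scaling, was 0.0412, 0.0140, and 0.0236 in WT and 0.137, 0.379, and 0.0788 in Mcl1 KO livers. In Mcl1 Sting1 DKO livers it was 0.126, 0.0788, and 0.0701, above the Sting1 KO values of 0.0400, 0.0631, and 0.0599. The second locus, chr7:19405504-19434947, holds Apoe, Apoc1, Apoc4, and Apoc2 within 29.4 kb. There, values in Mcl1 KO against WT went from -0.14 (SE 0.14) for Apoe through 0.39 (SE 0.19) for Apoc1 and 0.61 (SE 0.24) for Apoc4 to 1.31 (SE 0.26, adjusted p = 0.00677) for Apoc2, the activator of lipoprotein lipase. Apoc2 and Apoc4 are not among the 10 and come from a list of other apolipoprotein genes. Apoc2 was at 0.90 without Mcl1 KO replicates 2 and 3, where it did not pass.

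**Figure D3:**
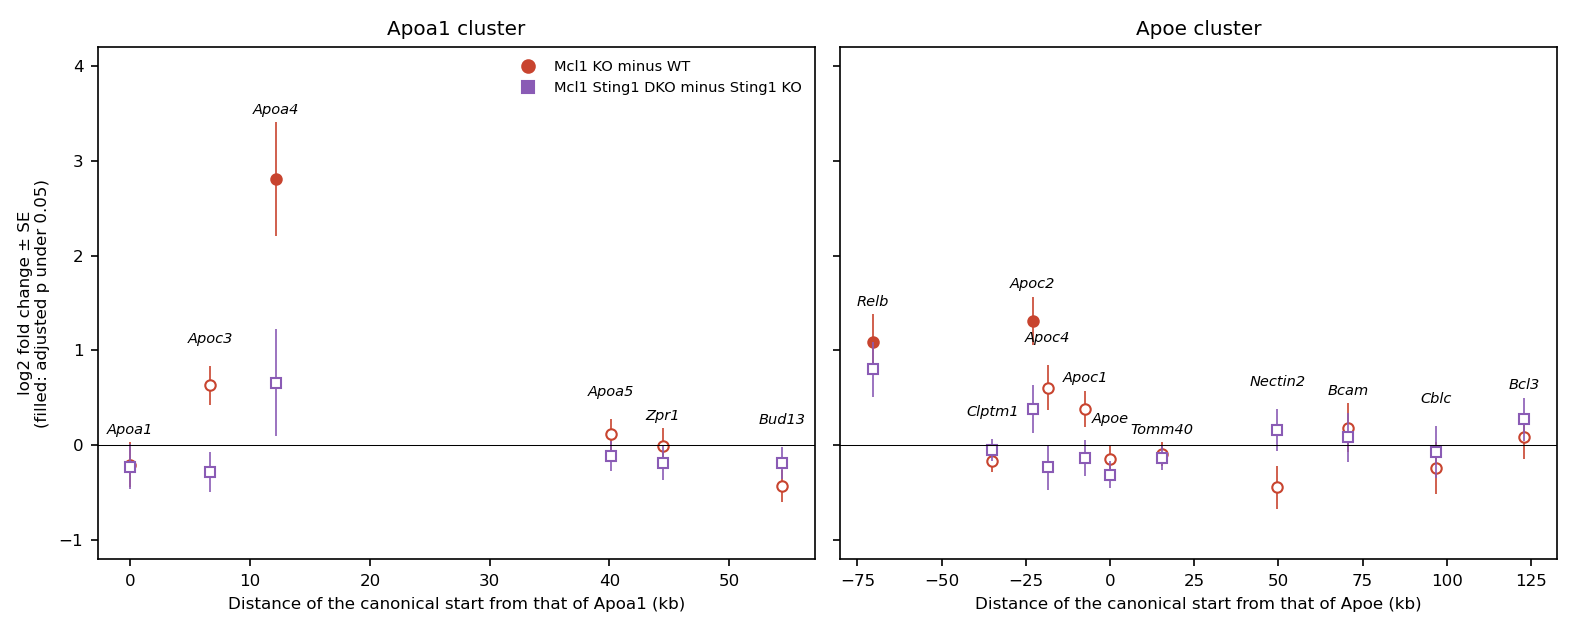
Log2 fold change with standard error (edgeR) of the apolipoprotein genes of the Apoa1 and Apoe loci and nearby genes (those over 200 kb before Apoa1 are left out) against the distance of each gene's canonical start from that of Apoa1 or Apoe in kb. Circles are Mcl1 KO against WT, squares are Mcl1 Sting1 DKO against Sting1 KO, and filled symbols have an adjusted p under 0.05. At the Apoa1 locus only Apoa4 (2.81) is filled, and at the Apoe locus Apoc2 (1.31) and the more distant Relb (1.09) are filled, in both cases only for Mcl1 KO against WT.

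Apob (ENSMUSG00000020609, chr12:8027648-8066835, plus strand) had by far the longest transcript of the 10, with 13934 bases. WT livers had 8121, 10005, and 10347 CPM. Mcl1 KO replicate 1 was within that range at 8865 CPM, while replicates 2 and 3 were at 3904 and 3249 CPM. Sting1 KO livers had 10316, 10312, and 7379 CPM, and Mcl1 Sting1 DKO livers had 12422, 9653, and 11970.0 CPM. The log2 fold change in Mcl1 KO against WT was -0.83 (SE 0.32, edgeR adjusted p = 0.0861), and -0.10 (adjusted p = 0.868) without replicates 2 and 3. Without replicate 1 it was -1.41 (adjusted p = 0.00155), and DESeq2 called the full comparison (-0.83, adjusted p = 0.0376). Apob was the member with the largest rise from Mcl1 KO to Mcl1 Sting1 DKO livers in size, at 1.09 (SE 0.32), with no overlap between the groups, but the edgeR adjusted p was 0.141. That value was 0.36 without Mcl1 KO replicates 2 and 3.

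Transcript length moved with this result. Over genes with a mean log2 CPM of at least 4, the median log2 difference from the WT mean fell with length in Mcl1 KO replicates 2 and 3. It went from 0.47 and 0.38 for the 277 genes with canonical transcripts of up to 1000 bases to -0.67 and -0.87 for the 200 genes over 10000 bases. In Mcl1 KO replicate 1 these medians were -0.19 and -0.03, and in the other 9 libraries the medians of the longest genes lay between -0.08 and 0.10. Apob was at -1.27 and -1.54 in replicates 2 and 3 and at -0.09 in replicate 1. Of the 200 long genes, 16 and 5 were at or below Apob in replicates 2 and 3. With an offset for the length trend in each library, Apob was at -0.49 (adjusted p = 0.103). The part of the length trend in the Apob result was not tested beyond this.

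Apoc3 and Apoc1 went the opposite way in the same 2 libraries. Apoc3 (ENSMUSG00000032081, chr9:46142527-46146934, minus strand), which restrains lipoprotein lipase and particle uptake, was at 1383, 1112, and 1340 CPM in WT livers. Mcl1 KO livers had 1342, 2369, and 2226 CPM. Sting1 KO livers had 1415, 1558, and 1734 CPM, and Mcl1 Sting1 DKO livers had 1155, 1429, and 1288 CPM. Its log2 fold change in Mcl1 KO against WT was 0.63 (SE 0.21, edgeR adjusted p = 0.0515), just outside the threshold, and 0.07 (adjusted p = 0.870) without replicates 2 and 3. It passed in 6 of 24 alternatives, among them DESeq2 (0.64, adjusted p = 0.0165) and the length offset (0.65, adjusted p = 0.0382). Apoc1 (ENSMUSG00000040564, chr7:19422540-19427328, minus strand), which inhibits uptake of remnants and lipid transfer, had 3174, 3212, and 3750.5 CPM in WT and 3188, 5329, and 4742 CPM in Mcl1 KO livers. Its log2 fold change was 0.39 (SE 0.19, edgeR adjusted p = 0.160), and -0.08 without replicates 2 and 3. For both genes, replicate 1 was inside the WT range. Over the 12 libraries, Apob had a Pearson r of -0.91 with Apoc3 and -0.89 with Apoc1, and Apoc1 and Apoc3 had 0.89. These points share the 2 libraries with the length trend.

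**Figure D4:**
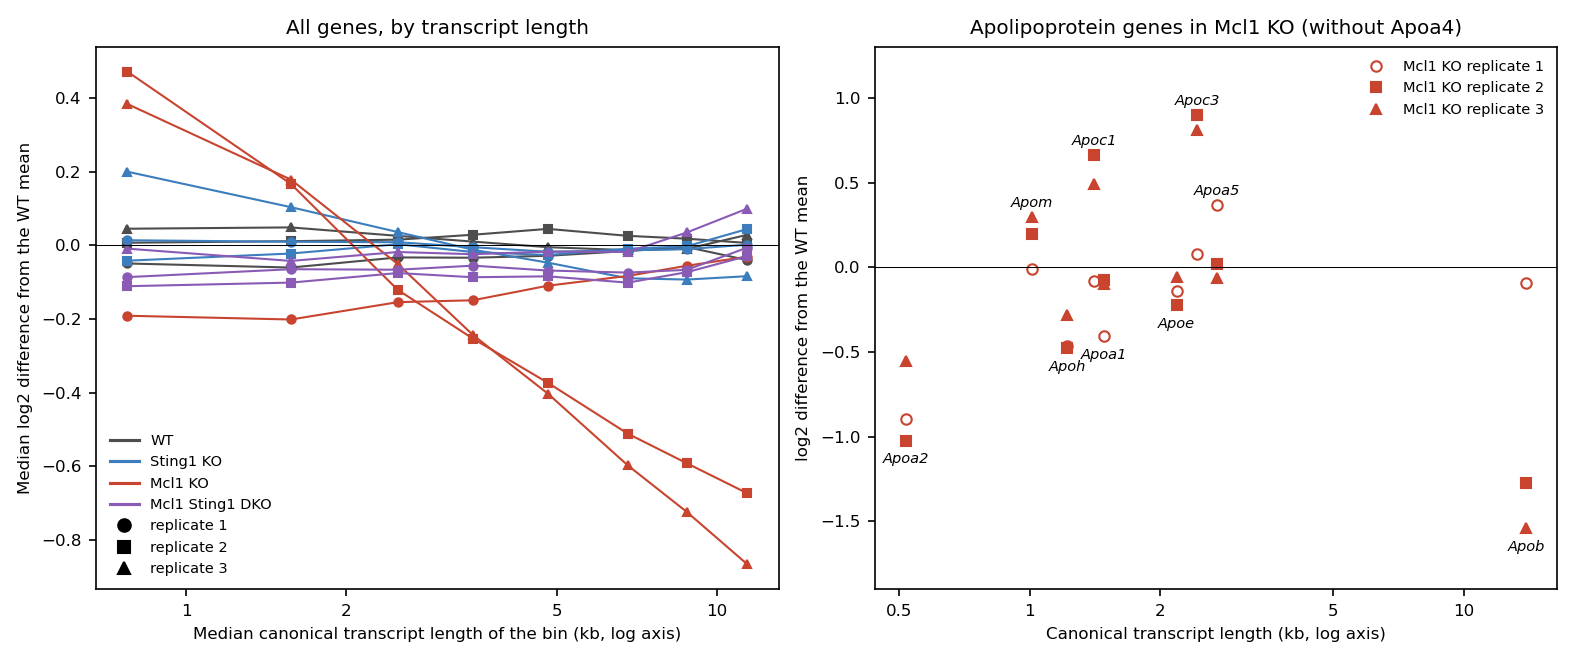
Left, the median log2 difference from the WT mean of genes in 8 bins of canonical transcript length (kb, log axis), 1 line per library. Right, the log2 difference from the WT mean of the apolipoprotein genes in the 3 Mcl1 KO libraries against canonical transcript length; Apoa4, which lies between 1.62 and 3.92, is left out of the axis range. Mcl1 KO replicates 2 and 3 slope downward with length, and Apob at -1.27 and -1.54 is at the long end in both.

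Apoe (ENSMUSG00000002985, chr7:19430034-19434947, minus strand), the ligand for receptor uptake of remnants, had the highest CPM of the 10 in every library. WT livers had 18477, 17333, and 20604 CPM, and Mcl1 KO livers had 17025, 16081, and 18037 CPM. Sting1 KO livers had 20564, 21447, and 21286 CPM, above all 3 Mcl1 Sting1 DKO livers at 16031, 16999, and 18036 CPM. The log2 fold changes were -0.14 (SE 0.14, adjusted p = 0.485) in Mcl1 KO against WT and -0.31 (SE 0.14, adjusted p = 0.431) in Mcl1 Sting1 DKO against Sting1 KO. With library totals alone in place of TMM factors, the former was 0.06. Macrophages make Apoe and Apoc1 too, and the 10 macrophage and Kupffer cell markers summed to 475 to 728 CPM in WT, 604 to 863 in Sting1 KO, 913 to 1114 in Mcl1 KO, and 837 to 931 in Mcl1 Sting1 DKO livers. Of these 10 markers, 7 were called higher and 0 lower in Mcl1 KO against WT, with 20.2% of all genes called. In Mcl1 Sting1 DKO against Sting1 KO, 2 were called higher and 0 lower, with 0.803% of all genes called. None of these markers was at 0 counts in a library. Their part in the Apoe and Apoc1 values was not tested.

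Apoa1 (ENSMUSG00000032083, chr9:46139878-46142212, plus strand), the main HDL protein, varied as much within genotypes as between them. It had 6441, 7810, and 9625 CPM in WT, 8586, 5569, and 6175 in Sting1 KO, 5925, 7464, and 7333 in Mcl1 KO, and 7614, 4585, and 5206 in Mcl1 Sting1 DKO livers. All 4 groups overlapped. The log2 fold changes with Mcl1 deletion were -0.20 (SE 0.24) and -0.22 (SE 0.24), neither near the threshold. Because Apoa2 fell and Apoa1 varied, the count of Apoa1 per Apoa2 count was 1.02 to 1.58 in WT and 1.83 to 2.57 in Mcl1 KO livers, without overlap. It was 0.823 to 1.38 in Sting1 KO and 1.10 to 2.14 in Mcl1 Sting1 DKO livers, which overlapped.

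Apoa5 (ENSMUSG00000032079, chr9:46179931-46183217, plus strand), which promotes lipolysis of triglyceride-rich particles, and Apom (ENSMUSG00000024391, chr17:35347973-35351026, minus strand) varied little. Apoa5 was between 1227 and 1747 CPM over all 12 livers, with log2 fold changes of 0.12 (SE 0.16) and -0.12 (SE 0.16) in the 2 comparisons. Its highest liver was Mcl1 KO replicate 1, outside the 2 libraries with the length trend. Apom was between 327 and 459 CPM, with log2 fold changes of 0.16 (SE 0.15) and -0.14 (SE 0.15).

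The role of Sting1 was addressed by Mcl1 Sting1 DKO against Mcl1 KO, which shares the Mcl1 KO libraries with the first comparison, and by Sting1 KO against WT. In the former, edgeR called 0 of the 10 genes and 0 of all 15070 (0%). Both counts rest on Mcl1 KO replicate 1. Without it, Mcl1 KO is left with replicates 2 and 3, the libraries with the length trend. In that fit edgeR called 3 of the 10 and 3108 of 15357 genes. With all libraries, unadjusted p was under 0.05 for 4 of the 10 and for 3098 genes in all. DESeq2 on all libraries called 663 of 14390 genes, of which 1 was among the 10, Apob. Those 4 were Apob (1.09), Apoa4 (-1.33), Apoc3 (-0.62), and Apoc1 (-0.48), each opposite in sign to its value in Mcl1 KO against WT, with the Mcl1 KO libraries in both. Without Mcl1 KO replicates 2 and 3 they were 0.36, -0.53, -0.06, and -0.01. In Sting1 KO against WT, 0 of the 10 passed by edgeR or DESeq2, 0 had an unadjusted p under 0.05, and edgeR called 0% of all genes. Apoa4 (0.82) and Apoc3 (0.30) were higher in all 3 Sting1 KO livers than in all WT livers, which groups of 3 can show without a difference. The share of all genes that separated in this way is not given here. For the interaction, edgeR and DESeq2 called 0 of the 10, with 0% of all genes called by edgeR, 2165 genes at an unadjusted p under 0.05, and 170 called by DESeq2. Unadjusted p was under 0.05 for Apoc3 (-0.91, SE 0.29, adjusted p = 0.280), Apoa4 (-2.15), and Apob (1.11, SE 0.45, adjusted p = 0.320). Without Mcl1 KO replicates 2 and 3 these were -0.36, -1.36, and 0.38, none with an adjusted p under 0.05. Without Mcl1 KO replicate 1, edgeR called the interaction for 2 of the 10, Apob and Apoc3, and for 1574 of 15357 genes. There too, only the libraries with the length trend stand for Mcl1 KO.

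The genes with the most similar profile to each member were taken from 7680 genes with a mean of at least 10 CPM, by Pearson r of log2 CPM over the 12 libraries. The libraries share genotype, depth, and the length trend, so the r values describe these samples only. Apoa2 was closest to Slc27a5 (0.98), a gene of the bile acid conjugation pathway, then Cmtm8 (0.98) and Ndrg2 (0.97). Apoh was closest to Cdo1, Crp, and Tecr (0.93 to 0.94), and Apoe to Kars1, Aadac, and Entpd8 (0.93 each). For Apob the 3 closest genes were Huwe1 (0.99), Mycbp2 (0.98), and Birc6 (0.97), whose canonical transcripts have 14611, 15274, and 15780 bases, similar in length to Apob. Apoc1 was closest to the respiratory chain subunits Cox6b1 and Uqcr10 (0.98 each), with transcripts of 658 and 448 bases, and to H3f3a (0.98), with 4674 bases. Apoc3 was closest to Rdh5 (0.98), Lsm10 (0.97), and Ppp1ca (0.97), with transcripts of 1606, 3890, and 1478 bases. Apoa4 was closest to Snx1 (0.93), Sat1 (0.92), and Bcl10 (0.92). The r values were lower for Apoa1 (Pdia5, 0.88), Apom (Pemt, 0.81), and Apoa5 (Ccnd2, 0.81).

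The genes that act on these apolipoproteins were described by lists, again against 20.2% of all genes called in Mcl1 KO against WT. Of 13 genes for lipoprotein assembly and Apob editing, 1 was called higher and 3 lower, with a median log2 fold change of -0.12. Mttp, which loads lipid onto Apob, was at -0.57 (SE 0.18), Mia2, a cargo factor for secretion, at -0.94 (SE 0.15), Dgat2, which makes triglyceride, at -0.86 (SE 0.22), and Pla2g12b at 0.85 (SE 0.19). Of 8 genes of lipolysis, 1 was called higher and 2 lower. Lpl, the lipase of triglyceride-rich particles, rose by 2.55 (SE 0.49), while its maturation factor Lmf1 was at -0.67 (SE 0.18). Of 11 receptor and clearance genes tested, 2 were higher (Cd36 at 1.70 and Sdc1 at 0.86) and 2 lower, among them Sort1 at -1.16. Of 9 genes of HDL formation, 2 were higher (Pcolce at 0.90 and Abcg1 at 0.65) and 1 lower (Bmp1 at -0.63). Of 12 other apolipoprotein genes tested, 2 were higher (Apoc2 and Apobr at 0.82) and 2 lower (Saa4 at -1.33 and Apon at -0.57). Without Mcl1 KO replicates 2 and 3, Lpl (3.01), Mia2 (-0.72), Abcg1 (0.99), and Saa4 (-1.56) still passed, and the others named in these 5 lists did not.

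Transcription factors known to act on apolipoprotein genes were the list with most calls in 1 direction. Of 21, 8 were called lower and 0 higher in Mcl1 KO against WT, against 1421 lower and 1629 higher of all 15070 genes. The median log2 fold change was -0.46 against -0.00 over all genes. The 4 with the largest change were Onecut1 (-2.31, SE 0.42), Foxa1 (-1.63, SE 0.25), Srebf1 (-1.30, SE 0.29), and Foxa2 (-1.22, SE 0.19), and Hnf4a was at -0.46 (adjusted p = 0.0958). Without Mcl1 KO replicates 2 and 3, Foxa2 still passed (-1.27, adjusted p = 0.0378), while Onecut1 (-1.50, adjusted p = 0.0721), Foxa1 (-1.36, adjusted p = 0.0547), and Srebf1 (-0.94, adjusted p = 0.176) did not. Without Mcl1 KO replicates 2 and 3, where 1 library stands for Mcl1 KO, the median of the list was -0.39. With small structured RNA as a covariate the count was 2 lower and 0 higher, where 83 lower and 403 higher of all 15070 genes were called. With the length offset it was 7 lower and 0 higher, where 1006 lower and 1991 higher of all 15070 genes were called. Among libraries without Y-linked expression, with 1 WT library and 4 genes called in all, the median of the list was -0.53. Foxa2 was at 38.9, 39.9, and 31.5 CPM in WT and 15.2, 14.2, and 17.8 CPM in Mcl1 KO livers. In Mcl1 Sting1 DKO against Sting1 KO, 0 genes of any of these 6 lists passed the edgeR threshold, with 0.803% of all genes called. Of 14 neighbours of both loci, 2 were called higher (Tagln at 2.71 and Relb at 1.09) and 1 lower (Sidt2 at -0.71) in Mcl1 KO against WT. None of the 14 was called without Mcl1 KO replicates 2 and 3, where Tagln was at 1.43 (adjusted p = 0.109), Relb at 1.26 (adjusted p = 0.0935), and Sidt2 at -0.39 (adjusted p = 0.309), or with small structured RNA as a covariate. Hepatic stellate cell markers moved with Tagln, a smooth muscle gene. Of 6, 4 were called higher in Mcl1 KO against WT, with 20.2% of all genes called, and 0 in Mcl1 Sting1 DKO against Sting1 KO. Their summed level was 246 to 308 CPM in Mcl1 KO against 104 to 147 CPM in WT livers.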

How the data were processed

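Per the labels, RNA was total RNA of liver with genotype as the group, and the authors deposited raw counts, whole reads per Ensembl gene without normalization. STAR, featureCounts, and GRCm39 are named in the submitters' processing notes. Their versions, the annotation, and the use of strand are not given in the sources used here. Gene names and positions were taken from GENCODE vM39 on GRCm39, which holds 39533 of the 40551 identifiers. From these counts, CPM and the tests came from edgeR 4.0.16 (TMM factors, filterByExpr by genotype, prior count of 2, glmQLFit and glmQLFTest) in R 4.3.3, on all 12 libraries without covariates. P-values were adjusted over 15070 genes by the Benjamini-Hochberg method at a threshold of 0.05. DESeq2 1.42.0 was an alternative. Both were tested on simulated data. No source says that libraries of a genotype came from separate litters, so p-values measure the spread between these samples. Depth was 28826367 to 45266387 counts per library, and counting error is small beside the spread between livers. No library was a duplicate (chi-square over its degrees of freedom, 40.1 to 290.3 within genotypes). The 10 genes, the lists, and the alternatives were chosen with earlier results of these data known. The genes named are the 10, the deleted genes, up to 4 called genes with the largest change per list with at least 1 CPM, and the 3 most similar genes per member. Hnf4a and Apoc4 were named after their values were seen. Some called list genes are not reported here by name. Motif windows used GRCm39 and GENCODE canonical starts.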

Additional observations from a re-analysis of the deposited data

How the results depend on the processing

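In Mcl1 KO against WT, 2 of the 10 genes were called, and DESeq2 called 5, the length offset 4, the fit of both groups alone 1, the fit without Mcl1 KO replicates 2 and 3 1, the fit with small structured RNA as a covariate 0, and the fit of libraries without Y-linked expression 0. Leaving out each library gave 2 to 5. DESeq2 called 1 in Mcl1 Sting1 DKO against Sting1 KO and 1 in Mcl1 Sting1 DKO against Mcl1 KO. In the latter, leaving out each library gave 0 to 3, and 0 to 2 for the interaction. The highest counts were without Mcl1 KO replicate 1, where 3108 and 1574 of 15357 genes were called in all. Mcl1 KO replicates 2 and 3, with the length trend, then stand alone for their group. Averaged over both backgrounds, 1 of the 3 calls was left with small structured RNA as a covariate and 1 among libraries without Y-linked expression. Sign changes beyond 1 standard error numbered 10, none called in either fit. In Mcl1 KO against WT they were Apoc1 (-0.047 with small structured RNA as a covariate, -0.082 without Mcl1 KO replicates 2 and 3), Apoe (0.058 with library totals alone), and Apom (-0.011 without those replicates, -0.046 with the length offset). Averaged, they were Apob (0.092) and Apoc3 (-0.10) without those replicates and Apoc3 (-0.024) with the covariate, and with the length offset Apom (0.16 in Mcl1 Sting1 DKO against Mcl1 KO, 0.0078 for the interaction). A further 66 sign changes had both values within 1 standard error of 0. The causes were not tested, except that dropping libraries leaves fewer samples. The offset, both fits that drop libraries by trend or Y-linked expression, and canonical lengths were chosen after seeing the data. With library totals alone, the median of all genes in Mcl1 KO against WT was 0.19, and 80.2% of called genes were higher, against 53.4% with TMM factors and 66.4% with the length offset; averaged, 84.5% with totals against 59.2%. All genes called there numbered 3050 of 15070, and 3846 of 16742 with DESeq2, 2997 of 15070 with the length offset, 486 with small structured RNA as a covariate, 1531 with Y-linked expression as a covariate, 1178 in the fit of both groups alone, 824 without Mcl1 KO replicates 2 and 3, 4 without Y-linked libraries, where WT is 1 library, and 1233 to 5232 leaving out each library (1233 without WT replicate 2, 1238 without Mcl1 KO replicate 2, 1596 without WT replicate 3, 5232 without Mcl1 KO replicate 1). In Mcl1 Sting1 DKO against Sting1 KO, DESeq2 called 461 genes, the fit of both groups alone 17, and Y-linked expression as a covariate 45, against 121, with 1 to 3 without any Sting1 KO library or Mcl1 Sting1 DKO replicate 1 or 2, 52 to 65 without WT replicate 2 or 3 or Mcl1 KO replicate 2, and 249 without Mcl1 Sting1 DKO replicate 3. Averaged, 2522 became 1493 with small structured RNA as a covariate, 363 among libraries without Y-linked expression, and 1711 to 4267 leaving out each library. Same-numbered libraries did not pair (r of deviations -0.54 to 0.25, over 0.1 in 3 of 18 pairs), and the replicate block called 2591, 129, and 2254 genes and changed no count of the 10.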
